A study of Rattus norvegicus with 4 samples.

Results

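The genes of transmitter handling followed here in hippocampal cells that are not neurons were Maob, Adora1, Adora2a, Gabbr1, Gria2 and P2rx4. They were chosen by symbol, and each matched 1 of the 32623 genes in the deposited gene list, so all 6 of 6 could be measured. Maob (ENSRNOG00000029778) encodes monoamine oxidase B, a mitochondrial enzyme that oxidises amines. Adora1 (ENSRNOG00000003442) and Adora2a (ENSRNOG00000001302) encode adenosine receptors that lower and raise cyclic AMP, respectively. Gabbr1 (ENSRNOG00000000774) encodes the GABA-binding subunit of the metabotropic GABA receptor, Gria2 (ENSRNOG00000054204) the AMPA receptor subunit that limits calcium entry, and P2rx4 (ENSRNOG00000001300) a cation channel opened by ATP.

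The data came from droplet sequencing of dissociated hippocampus of wild type male adult Sprague Dawley rats, aged 10 to 12 months by the design text. The series lists 4 titled samples with 1 library each: NC is a negative control, MCAO had a unilateral occlusion of the middle cerebral artery (a stroke model), and DEPR and MD are both described as given chronic stress; what MD stands for is not stated. The design text differs from these titles, since it describes 20 rats in 2 groups of 10, both with MCAO and 1 then stressed, with the hippocampi of 5 rats per group sequenced. A titled sample may therefore stand for several rats, and nothing here has a replicate check.

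All barcodes were deposited together in 1 matrix of UMI counts, in which each unique molecular identifier stands for 1 captured transcript. They end in the suffixes 1 to 4, called sets 1 to 4 here, and which set came from which titled sample is not given in the sources used. Each set is therefore given by its own value, and NC, MCAO, DEPR and MD are not compared. The sets held between 5884 and 9504 barcodes and between 36242408 and 54295520 UMIs. After filters, 27937 cells remained. Of all barcode sequences, 96 occurred in more than 1 set (58 among the cells given a type), and without those cells the leading median log2 ratios given below were 5.69 for Maob, 3.81 for Adora1, 6.60 for Adora2a, 3.04 for Gabbr1, 2.86 for Gria2 and 0.92 for P2rx4.

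Cells were named by a marker gate: a cell took the type of which it showed the largest share of markers, with at least 3 detected. The gate named 23931 cells and left 4006 unnamed. It is a range of marker counts and not a sharp class: 505 microglia-like cells and 76 endothelial-like cells sat at exactly 3 markers. Microglia-like cells showed 7 of 12 own markers at the median, oligodendrocyte-like cells 11 of 12, endothelial-like cells 10 of 13, and pericyte-like and smooth muscle-like cells 8 of 10 each. Smooth muscle-like cells also showed 4 pericyte markers and border macrophage-like cells 3 microglia markers at the median, while the other of these types showed 1 marker of their next list, or 2 for T cells.

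The types with at least 20 cells in every set were microglia-like (10784 cells), oligodendrocyte-like (7989), endothelial-like (2700), T cell-like (766), pericyte-like (486), smooth muscle-like (326) and border macrophage-like (200). Neurons were all but missing, with 1 neuron-like and 3 neuroblast-like cells, and 6 cells were astrocyte-like. The tissue label is hippocampus, yet these data describe its glia, vessels and immune cells. Levels are given as CPM (UMIs of the gene per 1e+06 UMIs of the summed cells of a type) and as the positive share, the share of cells with at least 1 UMI. All intervals are 95%, exact Poisson for CPM and exact binomial (Clopper-Pearson) for shares, and cover counting error only. Counts come from the 3' ends of transcripts, so levels are compared between cell types and never between genes.

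Monoamine oxidases end the action of dopamine, noradrenaline and serotonin, and in vessel walls they are part of the enzymatic barrier to circulating amines. Adenosine, GABA, glutamate and ATP are released by active or injured cells and reach glia and vessels as well as neurons. Adenosine receptors on mural cells take part in the control of vessel tone, and purine receptors of microglia sense tissue damage.

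For orientation, 2 promoter windows are shown, one of a gene found almost entirely in endothelial-like and ependymal-like cells (Maob) and one of a gene found in each of the 7 types (Gabbr1). RefSeq's table for the assembly GRCr8 held windows for 4 of the 6 genes, from 250 bases before to 50 after the start. The Maob window is chrX:8490155-8490454 on the plus strand and the Gabbr1 window chr20:1499187-1499486 on the minus strand, in GRCr8 and not in the build of the counts. Capitals mark matches to GGGCGG, the GC box, on either strand (CCGCCC on the strand shown).
Maob: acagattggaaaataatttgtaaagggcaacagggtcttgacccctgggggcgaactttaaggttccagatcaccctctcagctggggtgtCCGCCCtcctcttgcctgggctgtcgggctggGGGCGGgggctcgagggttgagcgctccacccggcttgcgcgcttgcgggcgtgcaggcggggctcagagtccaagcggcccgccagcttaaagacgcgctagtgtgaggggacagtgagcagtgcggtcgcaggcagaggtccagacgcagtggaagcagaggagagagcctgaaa
Gabbr1: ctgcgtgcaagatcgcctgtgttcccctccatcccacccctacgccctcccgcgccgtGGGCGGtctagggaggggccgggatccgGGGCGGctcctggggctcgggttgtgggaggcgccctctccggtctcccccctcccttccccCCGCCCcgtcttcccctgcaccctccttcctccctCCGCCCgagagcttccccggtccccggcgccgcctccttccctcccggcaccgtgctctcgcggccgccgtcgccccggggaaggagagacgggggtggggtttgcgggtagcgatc
The letters GGGCGG occurred 2 times in the Maob window and 4 times in the Gabbr1 window, and were not found in those of Adora1 and P2rx4. Of all 33469 windows, 33.1% held them. The TATA box TATAAA, in 14.2% of windows, was in none of the 4 members' windows. G and C made up 63.0% of the Maob window and 75.0% of the Gabbr1 window, against a median of 51.7%. These matches describe letters only.

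Among the 7 main types, Maob and Gria2 were highest in endothelial-like cells, Adora1 and Gabbr1 in oligodendrocyte-like cells and Adora2a in pericyte-like cells, while P2rx4 was spread over many types. A gene was called higher or lower in a type when its CPM was at least 2-fold above, or at most 0.5 of, that of all other gated cells in each of the 4 sets. By that rule Maob and Gria2 were higher in endothelial-like cells and Adora1 and Gabbr1 in oligodendrocyte-like cells. Adora2a was higher in pericyte-like and smooth muscle-like cells, and P2rx4 in no type. Of the 12226 genes measured, the rule called 10.7% higher in endothelial-like, 17.7% in oligodendrocyte-like, 8.55% in pericyte-like, 9.05% in smooth muscle-like and 9.86% in microglia-like, 6.81% in T cell-like and 1.6% in border macrophage-like cells. Lower calls, against their share of all genes, were 1 member in endothelial-like (19.8%), 2 in oligodendrocyte-like (25.6%), 3 in pericyte-like (16.5%), 5 in smooth muscle-like (20.9%) and 5 in microglia-like cells (31.2%). T cell-like and border macrophage-like cells had 4 each (26.3 and 23.3%). Of these 24 lower calls, 11 rest on at least 1 set with 0 UMIs in the type. In border macrophage-like cells the ratio intervals of Adora1, Adora2a and Maob took in 1 in at least 1 set. The same held for Adora1, Gria2 and Maob in pericyte-like cells, so these lower calls are not settled. The UMI minimum counts the type and the rest together, so a gene could pass it through the cells where it is high. The 6 genes were picked with earlier results of these data known, so their share is no evidence about such genes at large. Scaling by TMM factors in place of total UMIs shifted the median log2 ratio of all genes by 0.49 in microglia-like and by -0.45 in pericyte-like cells. It moved the share of calls that were higher from 24.0 to 37.8% and from 34.2 to 22.9% there.

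**Figure D1:**
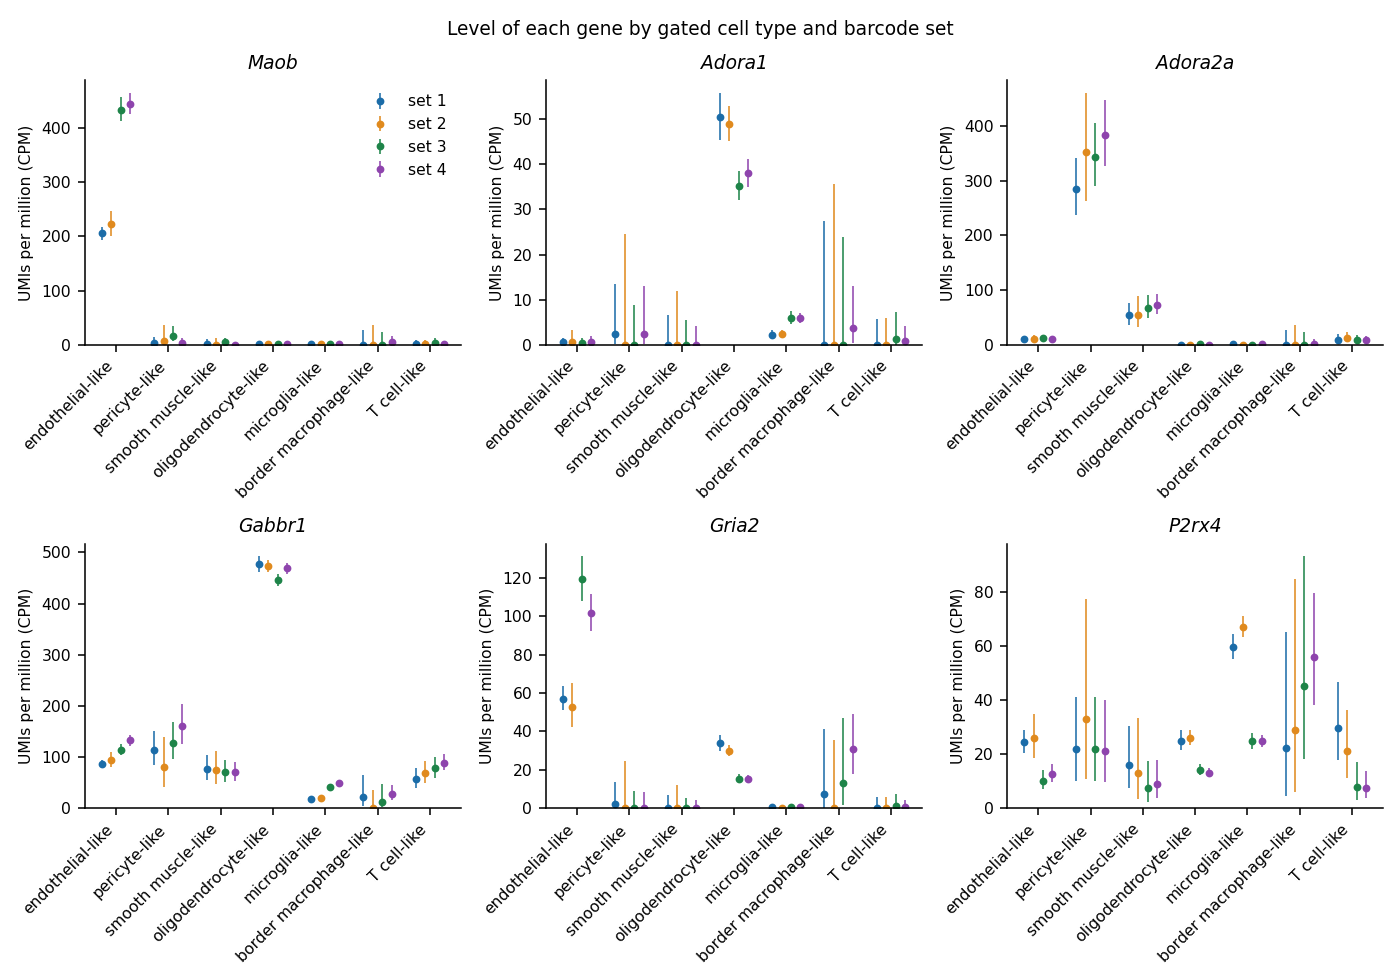
CPM of the 6 genes (vertical axes, each panel with its own scale starting at 0) in the 7 gated cell types with at least 20 cells in every set. Points are the 4 barcode sets and bars exact Poisson 95% intervals; Maob stands out in endothelial-like cells, Adora1 and Gabbr1 in oligodendrocyte-like cells and Adora2a in pericyte-like cells, while P2rx4 is spread over all types.

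Among the 7 main types, Maob was carried by endothelial-like cells. In endothelial-like cells it stood at 205, 223, 434 and 445 CPM in sets 1 to 4, and 57.2, 53.4, 74.3 and 67.4% of those cells had at least 1 UMI. Sets 3 and 4 were both above sets 1 and 2, by both measures. Against all other gated cells the median log2 ratio over sets was 5.68, with a range of 3.93 to 7.48 (5.59 with TMM factors). It was 6.65 without set 1 or without set 2 and 4.72 without set 3 or without set 4. The other gated cells include ependymal-like cells, given below, with 56, 55, 21 and 14 cells in sets 1 to 4. Their part in the range of this ratio was not tested. Microglia-like cells, which serve as the measure of free RNA here, were positive for Maob in 0.529% of cells, at a median of 5032.5 UMIs per cell against 4199.5 in endothelial-like cells. The other 6 of the 7 main types stayed at or under 16.9 CPM in every set. In pericyte-like cells, which adjoin endothelium, Maob stood at 2.42, 6.64, 16.9 and 2.34 CPM, on 10 UMIs in all. Free endothelial RNA, scaled by the endothelial markers found in pericyte-like cells, would carry 14.05, 10.1, 23.2 and 26.4 CPM there.

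Ependymal-like cells, which line the ventricles and are not among the 7 types, also held Maob, at a higher level than endothelial-like cells in sets 1 and 2 and a lower one in sets 3 and 4. They held 290.4, 296, 255 and 218 CPM on 56, 55, 21 and 14 cells, and 90.4% of the 146 cells were positive (84.4 to 94.7%) at a median of 13382 UMIs. Endothelial-like cells therefore carried 78.5, 57.2, 93.0 and 95.5% of the Maob UMIs in gated cells, and ependymal-like cells 19.0, 38.2, 3.96 and 1.29%. This split follows the number of cells as well as their level, since set 2 had 324 endothelial-like cells and set 4 had 963. Of the Maob UMIs in kept cells, 28.7% were in cells the gate left unnamed. Of those 2342 UMIs, 62.3% lay in 451 unnamed cells whose leading list was nonetheless the endothelial one.

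**Figure D2:**
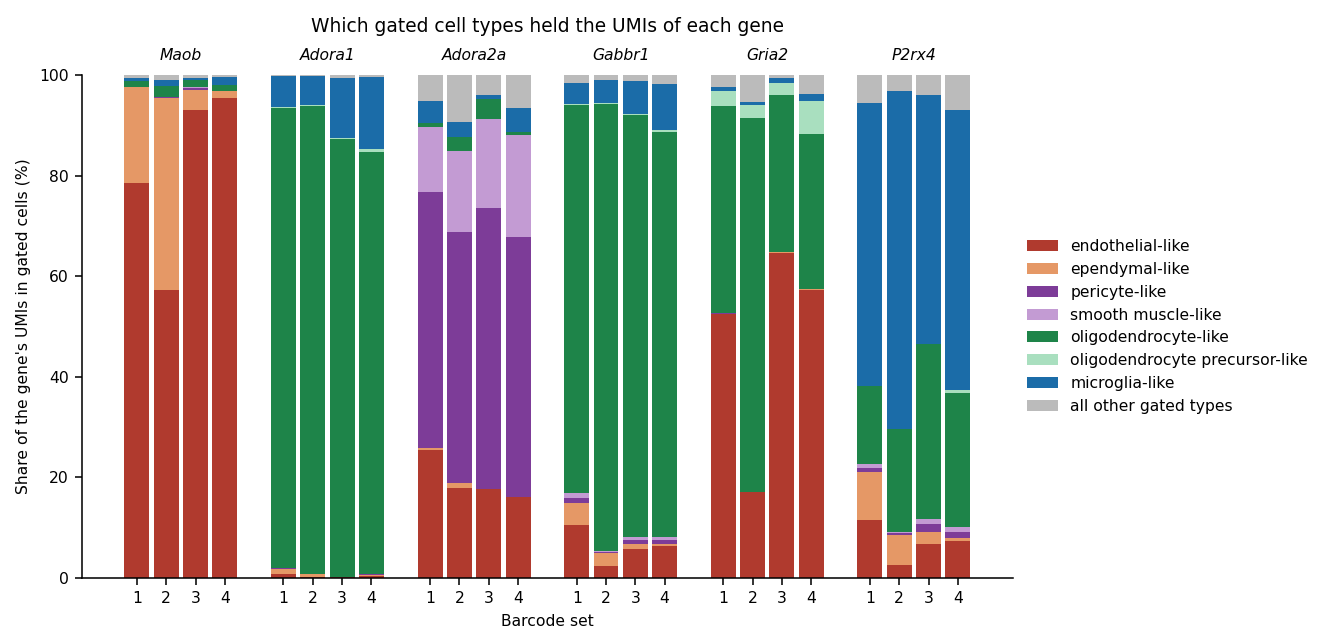
Share of each gene's UMIs (vertical axis, percent) held by each gated cell type in barcode sets 1 to 4 (horizontal axis), unnamed cells left out. Maob is split between endothelial-like and ependymal-like cells, with the ependymal-like share at 38.2% in set 2, and Gria2 between endothelial-like and oligodendrocyte-like cells, with the oligodendrocyte-like share at 74.5% in set 2.

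The genes around Maob were given from a list of 26 genes of monoamine breakdown, synthesis and transport, of which 13 were measured. In endothelial-like cells 3 of the 13 were higher and 5 lower, with a median log2 ratio of -0.27 against -0.07 for all genes. The other higher genes were Maoa, the oxidase that prefers serotonin, and Ddc, the decarboxylase that forms dopamine and serotonin. Maoa stood at 232, 253, 291 and 293 CPM in endothelial-like cells, a narrower spread over sets than that of Maob, and at a median log2 ratio of 4.33. Ddc had a median log2 ratio of 8.10, at 212 CPM against 0.772 in all other gated cells.

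In oligodendrocyte-like cells 4 of the 13 were higher and 3 lower, and the median log2 ratio was 0.30. Qdpr, which recycles the cofactor of the amine-forming hydroxylases, led there at 2776 CPM against 27.9 in other cells, a median log2 ratio of 6.58. Aldh3a2, an aldehyde dehydrogenase, was higher at a median log2 ratio of 1.33. The 4 include Renbp, at 1.40, which was on the list but encodes the renin-binding protein and not a monoamine enzyme. In microglia-like cells 1 was higher and 6 were lower. The higher gene was Gch1, which starts the synthesis of the same cofactor, with a median log2 ratio of 3.49. Hrh3, a histamine receptor from a separate list of monoamine receptors, was higher in microglia-like cells, at 4.44 CPM and a median log2 ratio of 3.93.

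Adora1, the inhibitory adenosine receptor, was carried by oligodendrocyte-like cells. It stood at 50.5, 48.9, 35.2 and 38.0 CPM in sets 1 to 4, with 24.8, 22.7, 19.9 and 21.7% of cells positive. Sets 1 and 2 were the higher ones here, by 1.43-fold between the extremes (1.25 to 1.65). The median log2 ratio against other gated cells was 3.82, with a range of 3.13 to 4.95 (3.66 with TMM factors; 3.14 without set 1 or set 2, 4.49 without set 3 or set 4), and oligodendrocyte-like cells held 91.5, 93.1, 87.1 and 84.0% of the UMIs. Endothelial-like cells gave the background for this gene, at 0.259% positive. Their median of 4199.5 UMIs per cell lay below the 5582 of oligodendrocyte-like cells. The 32 cells like oligodendrocyte precursors stood at 58.1 CPM over all sets (26.6 to 110.4), an interval that covers the level of the mature cells. Smooth muscle-like cells had 0 UMIs in 326 cells, where the floor of 3 counts stands at 1.24 CPM.

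Microglia-like cells were second in their share of Adora1 UMIs, at low levels of 2.22, 2.37, 5.88 and 5.87 CPM. Free oligodendrocyte RNA, scaled by oligodendrocyte markers, would carry 0.434, 0.51, 0.44 and 0.458 CPM there. The order of the sets was the opposite of that in oligodendrocyte-like cells, with sets 3 and 4 above sets 1 and 2 in microglia-like cells.

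Adora2a, the stimulatory adenosine receptor, marked the vessel wall. In pericyte-like cells, which wrap capillaries, it stood at 285, 352, 343 and 383 CPM, and 52.7, 72.0, 58.8 and 50.9% of cells were positive. The 4 sets lay within 1.34-fold of each other (1.05 to 1.72), and the set with the highest CPM had the lowest positive share. The median log2 ratio was 6.61, with a range of 6.15 to 7.83 (6.13 with TMM factors). Pericyte-like cells were the shallowest main type, at a median of 2741.5 UMIs, and oligodendrocyte-like cells, at 5582, were positive in 0.200%. Once every cell was thinned to 1000 UMIs, 29.8, 34.7, 37.2 and 34.0% of pericyte-like cells remained positive.

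Smooth muscle-like cells, the contractile cells of larger vessels, came next with 53.7, 55.2, 67.8 and 72.0 CPM of Adora2a and 32.0, 34.9, 41.7 and 37.1% positive. Their median log2 ratio was 3.40, with a range of 2.91 to 4.41. Pericyte markers stood at 1737, 1338, 2579 and 1902 CPM in these cells, and pericyte RNA in that proportion would carry 31.9, 31.9, 54.6 and 44.0 CPM; its part in the smooth muscle level was not tested. The levels of the 2 mural types did not overlap in any set. Endothelial-like cells followed at 10.56, 11.41, 12.97 and 11.34 CPM and T cell-like cells at 9.43, 11.4, 7.91 and 8.98 CPM, and these neighbours could not be told apart at this depth. Because endothelial-like cells were far more numerous, they still held 25.4, 17.9, 17.7 and 16.1% of the Adora2a UMIs in gated cells. Pericyte-like cells held 50.9, 50, 55.9 and 51.7%. Of the Adora2a UMIs in kept cells, 28.8% were in unnamed cells. Of those 367 UMIs, 44.7% lay in 451 unnamed cells whose leading list was the endothelial one. Rare immune types showed it too, with 8 UMIs in 26 monocyte-like and 10 in 58 NK cell-like cells, at 37.6 CPM (16.2 to 74.2) and 39.4 CPM (18.9 to 72.5).

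The list around the adenosine receptors held 16 genes of adenosine signalling, formation and removal, of which 12 were measured. In pericyte-like cells 3 were higher and 3 lower, in smooth muscle-like cells 3 and 6, in oligodendrocyte-like cells 2 and 7, in endothelial-like cells 2 and 4 and in microglia-like cells 2 and 6. Adora2b, the low-affinity stimulatory receptor, shared the mural cells with Adora2a: it stood at 58.1, 79.7, 41.1 and 44.4 CPM in pericyte-like cells and 14.33, 12.99, 19.57 and 15.75 CPM in smooth muscle-like cells. Adk, the kinase that removes adenosine, was the third gene higher in pericyte-like cells, at 278, 219, 295 and 318 CPM. Its median log2 ratio there was 2.53.

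Enzymes of adenosine formation were found in several types. Nt5e, the ectoenzyme that makes adenosine from AMP, stood at 102, 101, 52.2 and 49.1 CPM in oligodendrocyte-like cells, the type that also carried Adora1, and sets 1 and 2 were again the higher ones. Entpd1, which degrades ATP and ADP, was higher in smooth muscle-like cells at 109, 110.4, 125 and 133 CPM. The transporter Slc29a1 was higher in microglia-like cells, at 27.6, 27.9, 46.9 and 47.0 CPM, as was Pnp, at a median log2 ratio of 2.09. Endothelial-like cells had Enpp1 and the nucleoside transporter Slc28a2 higher, at median log2 ratios of 2.36 and 2.79. Adora3 was seen with 1 UMI in all, in a microglia-like cell.

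Gabbr1 was detected in all 7 main types and was highest in oligodendrocyte-like cells. It stood at 476, 473, 446 and 469 CPM there, with 85.5, 85.2, 85.7 and 88.2% of cells positive. The sets lay within 1.07-fold of each other, the narrowest spread of any member in its leading type. The median log2 ratio against other cells was 3.04, with a range of 2.76 to 3.72 (2.91 with TMM factors), and the type held 77.2, 88.7, 83.9 and 80.6% of Gabbr1 UMIs. Cells like oligodendrocyte precursors stood at 419.9 CPM over all sets (324 to 535), and ependymal-like cells at 219 CPM (199.7 to 239.6). The precursor interval reached up to and past the level of the mature cells.

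Other types held less Gabbr1. Endothelial-like cells stood at 85.7, 94.3, 114 and 132 CPM, pericyte-like cells at 114, 79.7, 128 and 161 CPM, smooth muscle-like cells at 77.0, 74.7, 70.8 and 69.7 CPM and T cell-like cells at 56.6, 68.6, 77.7 and 89.1 CPM. The smooth muscle-like value was below the endothelial-like and pericyte-like values in every set. In sets 1 and 2 that order is not settled, on 43 and 23 smooth muscle-like and 47 and 12 pericyte-like UMIs. T cell-like cells held 36, 42, 59 and 119 UMIs and smooth muscle-like cells 43, 23, 47 and 62. At these counts the 2 types could not be put in order in any set. Microglia-like cells were lower, at 17.1, 19.6, 42.2 and 48.6 CPM, below T cell-like cells in every set. Oligodendrocyte RNA scaled by its markers would carry 4.09, 4.93, 5.57 and 5.64 CPM of it in microglia-like cells.

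Gabbr2, the partner subunit that couples the receptor to G proteins, was almost undetected. Oligodendrocyte-like cells had 24 Gabbr2 UMIs in 7989 cells, 0.488 CPM. Cells like oligodendrocyte precursors had 3 Gabbr2 UMIs in 32 cells. Of the 26 genes listed for GABA receptors, synthesis and uptake, 23 were in the gene list and 5 could be measured. Oligodendrocyte-like cells had 3 of the 5 higher and 1 lower. Beside Gabbr1, Gabrg1, a subunit of the GABA-gated chloride channel, was higher at 2.05 CPM. Pericyte-like cells had 1 higher and 3 lower; the higher gene was the transporter Slc6a13, at 257 CPM against 0.335 elsewhere.

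Among the 7 main types Gria2 was highest in endothelial-like cells, with lower levels in oligodendrocyte-like and border macrophage-like cells, and outside them it was found in cells like oligodendrocyte precursors. In endothelial-like cells it stood at 57.1, 52.8, 119 and 102 CPM, with 19.3, 15.7, 28.2 and 23.3% positive. Sets 3 and 4 were above sets 1 and 2, as they were for Maob. The median log2 ratio was 2.85, with a range of 2.01 to 3.79 (2.75 with TMM factors), and it was 3.50 without set 1 or set 2 and 2.20 without set 3 or set 4. Microglia-like cells, at a median of 5032.5 UMIs against 4199.5, were positive in 0.223% of cells, and smooth muscle-like cells had 0 UMIs in 326 cells. Pericyte-like cells had 1 Gria2 UMI in 486 cells, where endothelial RNA scaled by its markers would carry 3.91, 2.40, 6.39 and 6.05 CPM.

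The 32 cells like oligodendrocyte precursors, glial cells known to receive synapses, had the highest level of Gria2, at 885, 501, 501 and 679 CPM on 4, 6, 7 and 15 cells, and 26 of the 32 were positive. Oligodendrocyte-like cells stood at 33.8, 29.9, 15.4 and 15.5 CPM, with 15.3, 13.5, 8.65 and 8.68% positive, and there sets 1 and 2 were the higher ones. Endothelial-like and oligodendrocyte-like cells thus moved in opposite order over the sets. Their shares of Gria2 UMIs were 52.4, 17.0, 64.7 and 57.3% in endothelial-like and 41.2, 74.5, 31.1 and 30.9% in oligodendrocyte-like cells. Border macrophage-like cells stood at 7.46, 0, 12.96 and 30.8 CPM on 20 UMIs, 17 of them in set 4, where they were above oligodendrocyte-like cells. Free endothelial RNA scaled by its markers would carry 0.418, 0.177, 1.57 and 1.64 CPM there.

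Within the endothelium, Gria2 was highest in cells with venous markers. Endothelial-like cells with at least 2 venous markers and fewer than 2 arterial ones (222, 86, 168 and 238 cells) stood at 79.9, 89.7, 182 and 150.2 CPM. Those with arterial markers only (31, 16, 36 and 76 cells) stood at 3.64, 0, 58.0 and 16.4 CPM, and those with neither at 45.1, 29.5, 87.2 and 91.9 CPM. The venous level was the highest of the 3 in every set. It was 21.9-fold (3.89 to 872), 3.13-fold (1.83 to 5.82) and 9.16-fold (4.74 to 20.3) the arterial level in sets 1, 3 and 4, and in set 2 the 16 arterial cells held no UMI. Of the 4190 genes measured between venous and arterial cells, 0.525% were at least 2-fold higher in the venous cells in every set, Gria2 among them, and 0.74% were lower. Median UMIs per cell were 5977 in venous, 6073 in arterial and 3195 in the remaining cells. Against cells with neither marker set the venous cells were 1.77, 3.05, 2.08 and 1.63-fold higher, which missed the 2-fold rule in sets 1 and 4; 0.224% of genes were called higher and 0.0172% lower there. For arterial cells against those with neither the shares were 0.522 and 0.204%. No other member was called between these subsets. Adora1 and Adora2a could not be measured in any of these comparisons, and P2rx4 only between venous cells and those with neither. Maob stood at 190.5, 224, 431 and 449 CPM in venous and 222, 259.7, 431 and 443 CPM in arterial cells. The subsets were drawn after the data were seen.

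**Figure D3:**
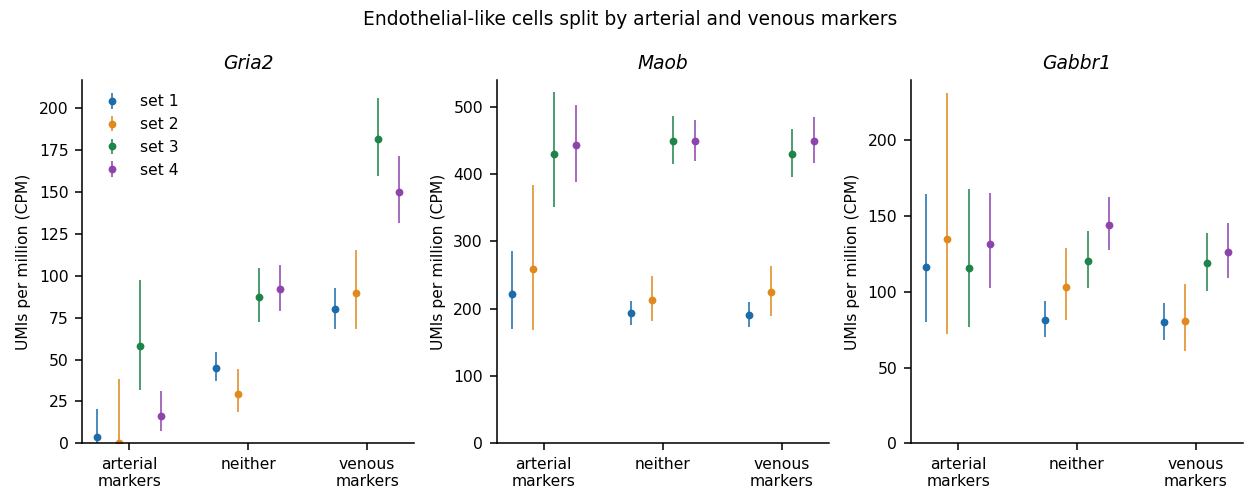
CPM of Gria2, Maob and Gabbr1 (vertical axes starting at 0) in endothelial-like cells with arterial markers, with neither marker set and with venous markers (horizontal axes). Points are the 4 barcode sets and bars exact Poisson 95% intervals; Gria2 is highest in venous cells in every set, from 79.9 to 182 CPM, while Maob is called in none of them.

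Neuronal RNA was looked for in endothelial-like cells because Gria2 is best known from neurons. Of 10 neuron markers, 9 summed to 7.16, 6.60, 8.65 and 4.89 CPM over the sets. The tenth, Nrgn, stood at 1095, 1026, 538 and 348 CPM. The part of neuronal RNA in the Gria2 level was not tested. The other AMPA receptor subunits had few UMIs in endothelial-like cells, with 4 of Gria1, 8 of Gria3 and 5 of Gria4 in 2700 cells. Gria3 was found in pericyte-like cells, at 55.6, 59.7, 33.9 and 58.4 CPM, and in cells like oligodendrocyte precursors (271 CPM), which also held Gria4 (181 CPM). Pericyte-like cells held no UMI of Gria1 or Gria4.

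Of 37 genes for glutamate receptors, auxiliary subunits and uptake, 13 were measured. Endothelial-like cells had 2 higher and 7 lower, with a median log2 ratio of -1.64 against -0.07 for all genes: Gria2 and the glutamate transporter Slc1a1, at 173 CPM and a median log2 ratio of 5.82. Oligodendrocyte-like cells had 5 higher and 2 lower. Among them were Grm3, a metabotropic receptor, at 448 CPM (median log2 ratio 6.39), the kainate receptor subunit Grik4 at 30.7 CPM (6.76), and Glul, glutamine synthetase, at 743 CPM (1.49). In pericyte-like cells 1 was higher and 5 lower, the higher one being the kainate subunit Grik5 at 12.8 CPM.

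P2rx4 had no single carrier. In microglia-like cells, where purine receptors are most studied, it stood at 59.8, 67.2, 24.8 and 24.8 CPM, with 22.4, 24.7, 12.8 and 11.7% of cells positive. Sets 1 and 2 were thus more than 2-fold above sets 3 and 4. The median log2 ratio against other gated cells was 0.92, with a range of 0.83 to 1.17, just short of the 2-fold rule, and with TMM factors it was 1.42 and past it. Microglia-like cells still held 56.1, 67.2, 49.4 and 55.6% of P2rx4 UMIs. No main type was free of the gene. The lowest positive share, 5.22% of T cell-like cells at a median of 3832.5 UMIs, lies below the share of microglia-like cells in every set.

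Border macrophage-like cells stood at 22.4, 29.0, 45.4 and 56.1 CPM, on 29, 23, 26 and 122 cells. These values rest on 3, 3, 7 and 31 UMIs. They lay below those of microglia-like cells in sets 1 and 2 and above them in sets 3 and 4. On 3, 3 and 7 UMIs, the order against microglia-like cells is not settled in sets 1 to 3. The ratio to all other gated cells is a different comparison. Its intervals took in 1 in sets 1 and 2 (0.111 to 1.57 and 0.125 to 1.78) but not in set 3 (1.03 to 5.33). Endothelial-like cells stood at 24.5, 25.8, 10.1 and 12.7 CPM, oligodendrocyte-like cells at 25.0, 26.1, 14.2 and 13.1 CPM and T cell-like cells at 29.9, 21.2, 7.91 and 7.49 CPM. In these 3 types and in microglia-like cells, sets 1 and 2 were above sets 3 and 4. Ependymal-like cells showed the same order at a higher level, 121, 116, 51.9 and 40.4 CPM. Pericyte-like cells, at 21.8, 33.2, 21.8 and 21.0 CPM on 32 UMIs, did not separate the sets. Neutrophil-like and monocyte-like cells stood at 90.1 CPM (55.0 to 139) and 89.4 CPM (53.8 to 139.6), on 20 UMIs in 80 cells and 19 in 26.

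**Figure D4:**
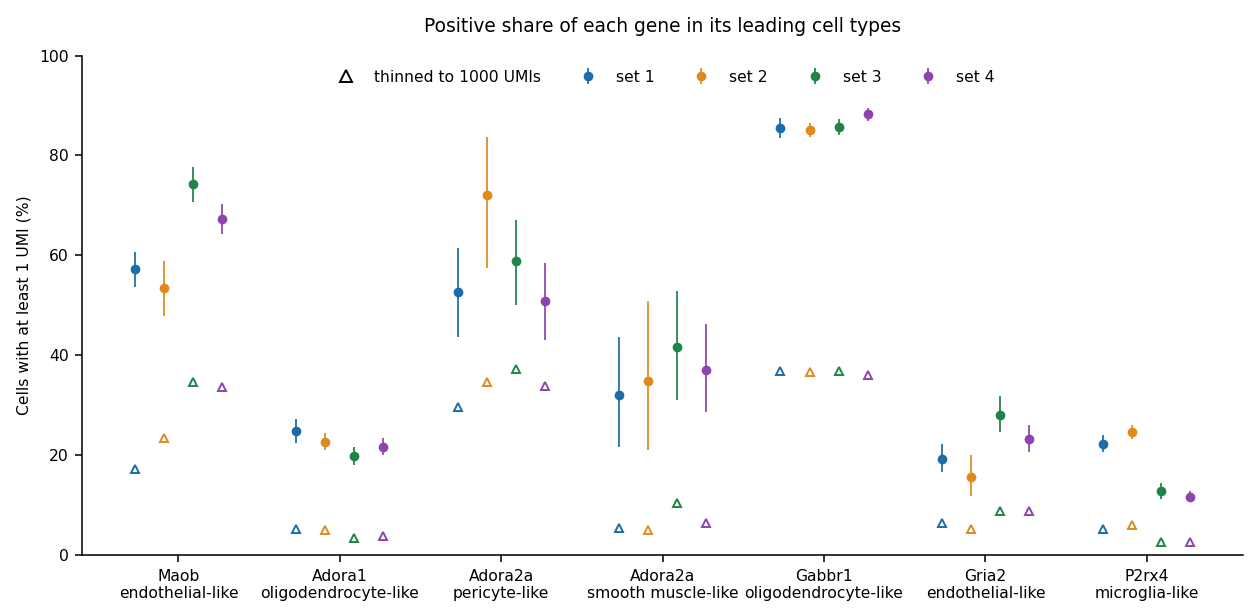
Share of cells with at least 1 UMI (vertical axis, percent) for 7 pairs of gene and cell type (horizontal axis) in the 4 barcode sets. Filled points carry exact binomial 95% intervals and open triangles are the same cells thinned to 1000 UMIs; P2rx4 in microglia-like cells falls from 22.4 and 24.7% in sets 1 and 2 to 12.8 and 11.7% in sets 3 and 4, and the thinned shares keep that order.

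After thinning to 1000 UMIs, 5.29, 6.01, 2.70 and 2.76% of microglia-like cells were positive, the same order of sets 1 and 2 over sets 3 and 4. Markers of other types moved over the same sets. The 5 erythroid markers summed to 425, 353, 29.7 and 42.1 CPM in microglia-like cells, oligodendrocyte markers to 274, 318, 506 and 475 CPM and their own markers to 12535, 12918, 10311 and 9826 CPM, and the part of these in the P2rx4 values was not tested. Nucleotide receptors around it were a list of 16 genes with 10 measured, of which microglia-like cells had 5 higher and 1 lower, with a median log2 ratio of 1.71 against -0.64 for all genes. P2ry12, the ADP receptor of resting microglia, stood at 70.4, 78.0, 134 and 132 CPM, and P2rx7, the ATP channel of low affinity, at 18.7, 18.6, 31.4 and 33.1 CPM. Both were higher in sets 3 and 4, where P2rx4 was lower. P2rx7 was not called in microglia-like cells. The 5 called were P2ry12, P2rx1 at a median log2 ratio of 1.79, P2ry6 and P2ry13 at median log2 ratios of 5.65 and 5.47, and the release channel Panx1, at 22.6, 23.1, 20.8 and 28.9 CPM. P2ry14, a receptor for UDP sugars, was the gene higher in pericyte-like cells, at 154 CPM, and P2ry2 the one higher in oligodendrocyte-like cells, at 13.9 CPM.

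Over the 4 sets, the same gene could be steady in one type and move in another. A gene was called apart in a type when its highest set was at least 2-fold above its lowest, with at least 50 UMIs in that pair, and 17 of the 42 pairs of member and main type had enough UMIs. Of these, 8 were apart. The rule called 14.6% of genes apart in microglia-like, 14.1% in endothelial-like, 9.58% in oligodendrocyte-like and 18.5% in pericyte-like cells, and 14.7% in T cell-like, 10.8% in smooth muscle-like and 58.8% in border macrophage-like cells. In microglia-like cells all 3 members that could be measured were apart: Gabbr1 at 2.84-fold (2.42 to 3.33) and Adora1 at 2.65-fold (1.64 to 4.399), both lowest in set 1, and P2rx4 at 2.71-fold (2.37 to 3.12), lowest in set 3.

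In endothelial-like cells 3 of 5 were apart, Maob at 2.17-fold (2.01 to 2.33), Gria2 at 2.26-fold (1.79 to 2.88) and P2rx4 at 2.56-fold (1.60 to 4.12). With TMM factors the log2 ratio of Maob was 0.91 and no longer past the rule. Maob and Gria2 were higher in sets 3 and 4 and P2rx4 in sets 1 and 2. Erythroid markers summed to 808, 2979, 116 and 151 CPM in endothelial-like cells; their part in these differences was not tested. The other pairs apart were Gria2 in oligodendrocyte-like cells at 2.19-fold (1.81 to 2.65), and Gabbr1 in pericyte-like cells at 2.02-fold (1.09 to 4.11) on 12 UMIs in the lowest set. P2rx4 in oligodendrocyte-like cells fell just short, at 1.99-fold (1.67 to 2.38). The other 8 pairs that were not apart ran from 1.07 to 1.57-fold: Gabbr1 in oligodendrocyte-like, smooth muscle-like, endothelial-like and T cell-like cells, Adora1 in oligodendrocyte-like cells, and Adora2a in pericyte-like, smooth muscle-like and endothelial-like cells. Since no set is tied to a titled sample, none of these differences can be assigned to stroke or stress.

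**Figure D5:**
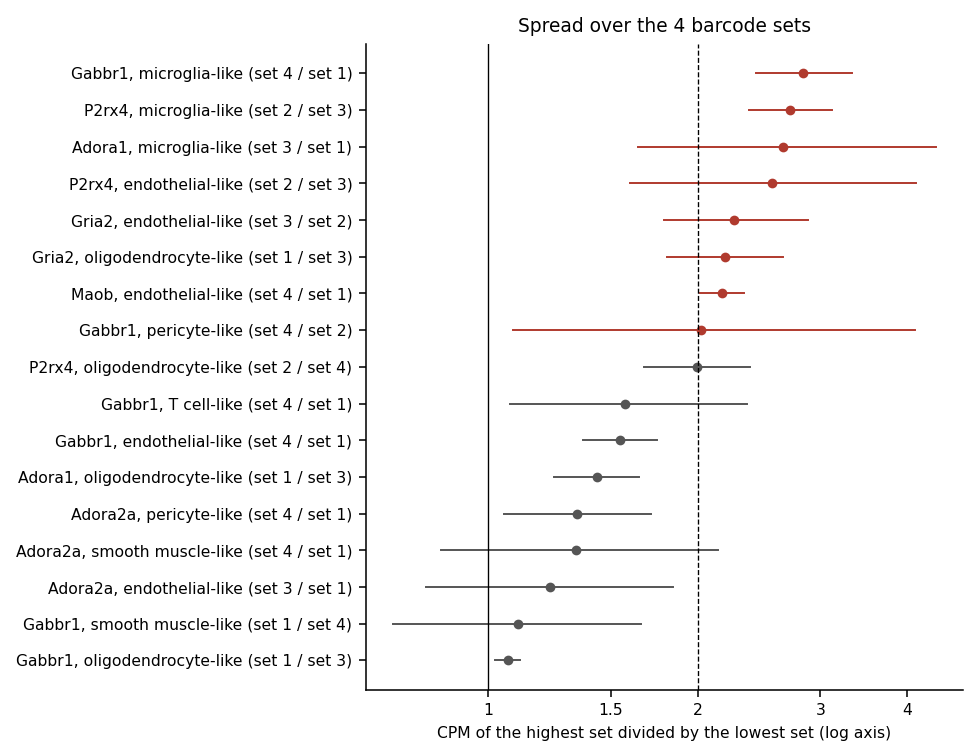
CPM of the highest set divided by that of the lowest (horizontal log axis) for the 17 pairs of gene and cell type with enough UMIs, with exact conditional binomial 95% intervals. Red marks the 8 pairs at or beyond 2-fold (dashed line); since each pair joins its own extremes, the ratio lies above 1 by construction, from 1.07 for Gabbr1 in oligodendrocyte-like cells to 2.84 for Gabbr1 in microglia-like cells.

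Splits within oligodendrocyte-like and microglia-like cells gave no call for any member that could be measured. Maob and Adora2a could not be measured in either split, nor Gria2 in that of microglia-like cells. Of the genes measured, 0.223% were higher and 0.267% lower with Klk6, and 0.605% higher and 0% lower with MHC class II genes. Oligodendrocyte-like cells with a UMI of Klk6, which marks part of the mature cells, had 513, 496, 457 and 488 CPM of Gabbr1 against 414, 436, 411 and 399.5 CPM in those without. Their Adora1 was 50.8, 50.4, 36.2 and 39.2 CPM against 49.96, 46.6, 31.8 and 33.9 CPM. Gabbr1 was slightly higher with Klk6 in every set, far short of 2-fold, and its intervals left out 1. Median UMIs per cell were 6287.5 with Klk6 and 4557 without, and the part of depth in the Gabbr1 difference was not tested. For Adora1 the interval of the ratio took in 1 in every set, for example 0.820 to 1.26 in set 1 and 0.944 to 1.42 in set 4. In microglia-like cells split by MHC class II genes, P2rx4 stood at 25.1 and 24.9 CPM with at least 2 such genes and at 20.5 and 23.9 CPM with fewer, in sets 3 and 4; in sets 1 and 2 the second subset held 27 and 47 cells.

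The pattern of each member over types was matched to all genes, by Pearson correlation of log2(CPM + 5) over 40 sums of cell type and set from 12 types. These points share libraries and cells of a type, so the values only describe likeness. Closest to Maob were Cyb561 (r = 0.972), Greb1 (0.970) and Slc38a3 (0.968), and closest to Adora1 were Col9a2 (0.964), Kcnj10 (0.948) and Snhg11 (0.946). Adora2a was most like Gfra2 (0.932), Tbxa2r (0.920) and Rerg (0.916), and Gabbr1 most like Eml2 (0.918), Arap2 (0.917) and Sec62 (0.909). Gria2 was less well matched, with Shroom1 (0.9005), Sorcs1 (0.895) and Selenop (0.892). P2rx4 had the weakest matches, Stat2 (0.748), Tcn2 (0.719) and Arrdc4 (0.712).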

How the data were processed

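The UMI counts deposited by the authors were raw, 1 whole number for each gene in each barcode, in 1 pooled matrix written by Cell Ranger 5.0.0, per the file headers. The submitters' processing notes name Cell Ranger, STAR and the build Rnor_6.0. Enzymatic dissociation, lysis of red cells and a 10x 3' kit (version 3) are given per the labels' protocols. The gene annotation is not given in the sources used here.

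Cells were kept with at least 500 UMIs, 300 genes and at most 20% mitochondrial UMIs. Doublets were called per set with Scrublet (expected share 6%) and removed, 211, 268, 129 and 334 cells in sets 1 to 4, which left 6343, 7982, 5186 and 8426. The marker gate used 20 lists. A cell needed at least 3 own markers, and another unrelated type with at least 3 markers barred it above 0.5 of the own share. The gate named 79.3, 84.5, 90.5 and 88.6% of kept cells. UMIs were summed per type and set. Genes entered a comparison with 20 or more UMIs in the type and all other gated cells together in every set. Ratios have exact conditional binomial 95% intervals. RNA carried from a source type was estimated as the source's CPM of the gene times the ratio of summed source markers in the receiving and the source type. This is an upper estimate where the receiving type makes those markers itself. The floor for 0 UMIs is 3 counts.

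With 1 library per titled sample, no test was run. The comparison step was tested on simulated counts. Named genes were the 6 members, a fixed list of partners, up to 3 further genes called higher per pathway list and leading type, by UMIs, and the 3 closest genes per member. Some genes named by this rule are not reported here. Members, lists and partners were chosen with earlier results of these data known, and the gate's thresholds after the data were seen. Alternatives covered cell filters, doublets, Leiden clusters (resolution 2), a stricter gate, per-cell means, edgeR TMM factors, UMI minimums, each set left out and thinning to 1000 UMIs; 2 more were added after the data were seen, an interval rule and leaving out shared barcodes. Tools were edgeR 4.0.16 (R 4.3.3) and, under Python 3.11.15, scanpy 1.11.5, numpy 2.4.6, scipy 1.17.1 and pandas 2.3.3.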

Additional observations from a re-analysis of the deposited data

How the results depend on the processing

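The leading calls of Maob, Adora1, Adora2a, Gabbr1 and Gria2 against other gated cells were kept under every alternative run, and the P2rx4 value in microglia-like cells passed the 2-fold rule only with TMM factors (log2 1.42). Between sets, the Maob ratio in endothelial-like cells fell below the rule with TMM factors (log2 0.91), and that of P2rx4 in oligodendrocyte-like cells (log2 0.996) passed it with doublets kept (1.03), with per-cell means (1.16) and with TMM factors (1.05). Counts of genes called depended on the number that could be measured. With a minimum of 1 UMI, 4021 genes were lower in endothelial-like and 4834 in pericyte-like cells, against 2418 and 2015. After thinning, 2224 were lower in microglia-like and 1902 in oligodendrocyte-like cells, 821 higher and 1337 lower in endothelial-like cells, and 573 higher and 1171 lower in pericyte-like cells, against 3811, 3132, 1309, 2418, 1045 and 2015. The interval rule left 571 lower in pericyte-like cells. Leaving out each set in turn moved the leading log2 ratios to 4.72 to 6.65 for Maob, 3.14 to 4.49 for Adora1, 6.49 to 6.72 for Adora2a, 2.79 to 3.29 for Gabbr1, 2.20 to 3.50 for Gria2 and 0.84 to 1.0 for P2rx4. Among other pairs of member and type, 12 values lost a call, 2 gained one and 376 kept their side; pairs with 0 UMIs in 2 or more sets have no value. No paired analysis was possible because no barcode set is tied to a titled sample. Neurons and astrocytes were too few to measure, and levels in types with under 50 cells per set rest on few UMIs.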
